A study of Mus musculus with 4 samples.

Results

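Transcripts of 35 genes that p53 is known to control, Trp53 itself included, were measured in 4 lung tumours in which Trp53 had been targeted for deletion. The 35 genes were taken by symbol from a count table of 39017 genes, and 35 of 35 symbols were found. The tumours formed 1 group, the KP controls, numbered 1 to 4 by the replicate number in their labels. KP mice are here male C57BL/6 animals with 2 floxed copies of Trp53 (p53Fl/Fl), which the enzyme Cre recombinase cuts out in the cells where it starts tumours. Cre came from a lentivirus with a PGK promoter, which is active in many cell types, given into the trachea at 1500 viral units per mouse by the labels, whereas the methods give other doses for this vector. Tumours were dissected 22 weeks and 5 days later and dissociated, and polyadenylated RNA of the cell suspension was sequenced. A further floxed allele is unsettled. The genotype label reads heterozygous fl/wt with no gene name, the log2 columns carry the mark WT, and by the methods a control may hold 0 or 1 floxed copies of Slc2a1. The labels name no removal of immune cells, whereas the study's methods describe anti-CD45 bead depletion for its PGK-Cre fractions and none for a set of bulk tumours, and which of these the present samples are is not settled. The labels also do not say whether each tumour came from a separate mouse. In such mixed cell samples fewer cells of a type and less RNA per cell cannot be told apart. No tumour with intact Trp53 was analysed here, so the values are levels in p53-deleted tumours alone and do not measure how much of any transcript depends on p53.

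p53 is a transcription factor that is stabilised by DNA damage and other stress and binds paired copies of a short palindromic half-site near its target genes. Its targets stop the cell cycle, start cell death, repair DNA and adjust metabolism, and one of them, Mdm2, marks p53 for degradation and so closes a feedback loop. Most of these genes also answer to other factors, and in mouse lung adenocarcinoma the loss of p53 is known to speed progression to high-grade tumours.

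The promoter sequences of the 35 genes were searched for the half-site, which is 10 bases of 3 purines, C, 2 bases that are A or T, G and 3 pyrimidines. It reads alike on both strands. A match was a pair of half-sites up to 13 bases apart, with the C and the G of each kept and at most 1 mismatch elsewhere. RefSeq promoter windows on GRCm38.p6, from 250 bases before to 50 bases after an annotated start, were given for 27 of the 35 genes, with none for Perp, Ddb2, Rrm2b, Xpc, Ptp4a3, Trp53inp1, Pmaip1 and Zmat3. Of these 27 genes 4 (14.8%) held a match, against 194 of 27025 genes (0.718%) with a window. These 4 matches are shown because they are the stretches in these windows most like the known p53 half-site pair, with the half-sites in capitals and up to 25 bases on either side.

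Cdkn1a: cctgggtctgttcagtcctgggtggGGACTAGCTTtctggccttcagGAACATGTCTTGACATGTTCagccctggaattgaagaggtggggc
Ccng1: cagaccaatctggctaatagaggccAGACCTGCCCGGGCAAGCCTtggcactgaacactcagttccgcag
Rps27l: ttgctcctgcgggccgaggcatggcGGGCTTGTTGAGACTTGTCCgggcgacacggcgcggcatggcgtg
Gtse1: GAGCAAGTTGGGGCTTGCCT

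The Cdkn1a stretch lies at chr17:29090881-29090972 on the plus strand and ends just before the annotated gene. Its first and second half-sites are 12 bases apart with 0 mismatches, the only such pair among the 27 genes. Another half-site, which begins with T in place of a purine and so has 1 mismatch, follows the second directly. The Ccng1 stretch lies at chr11:40755437-40755506 on the minus strand, with its pair 151 bases upstream of the annotated gene. The Rps27l stretch lies at chr9:66946271-66946340 on the plus strand, in an intron of the annotation. The Gtse1 pair lies at chr15:85859945-85859964 on the plus strand and touches an annotated exon, so it is printed without flanks. The other 3 pairs were adjacent, with 1 mismatch each. With 2 mismatches allowed, Bax, Ckap2 and Sesn1 were added, which made 7 of 27 genes (25.9%) against 4.71% of all genes. The bar chart of matches gives the same shares for other numbers of mismatches. A match describes the letters of the window only, and a window without one says nothing of sites farther away, such as those in introns.

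**Figure D1:**
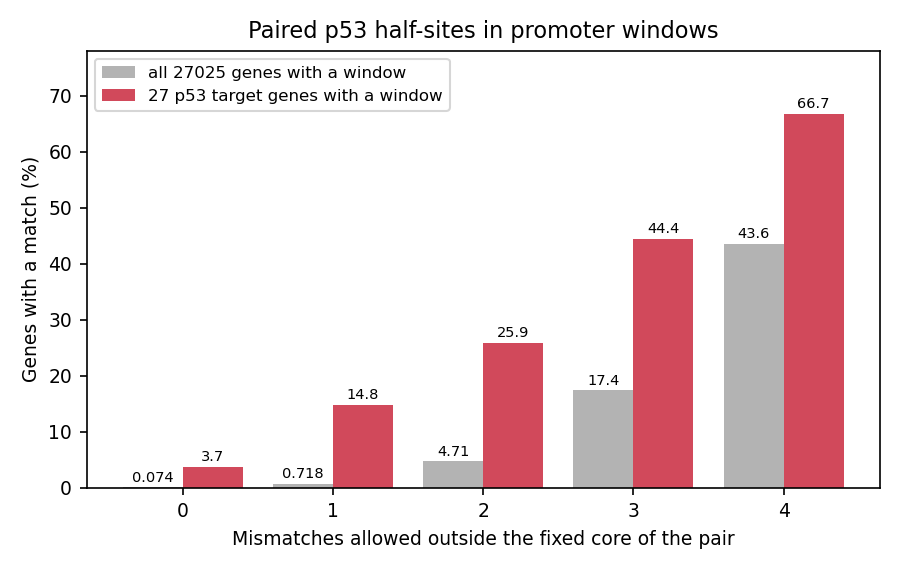
Share of genes (%) whose RefSeq promoter window held a pair of p53 half-sites, by the number of mismatches allowed outside the fixed C and G, for the 27 p53 target genes with a window (red) and 27025 genes (grey). At 1 mismatch the bars stand at 14.8% and 0.718%, and at 4 mismatches at 66.7% and 43.6%.

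Libraries held 8151613 to 8799007 counts, so that 3 counts, the limit set by a count of 0, were worth 0.330 to 0.370 CPM (counts per 1000000 of the effective library size). Genes with a mean of at least 1 CPM, 14225 in all, were tested, and 35 of 35 p53 target genes were among them. Their counts ran from 5 (Gdf15 in tumour 3) to 1712 (Btg2 in tumour 1), so each was above the limit in every tumour. Intervals and limits of this kind cover counting error only. Tumours 1 and 3 stood apart in several marker lists. Proliferation markers were highest in tumour 1 for 9 of 12 genes, with a summed level of 1002 CPM against 681 to 844 CPM elsewhere. Epithelial markers were highest in tumour 1 for 5 of 6 genes, with a sum of 4523 CPM against 2730 to 2878 CPM. The other, Cdh1, was lowest there (842 against 846 to 887 CPM). Alveolar type 2 markers summed to 32860 CPM in tumour 1 against 53158 to 60875 CPM. Among the alveolar type 2 markers, Sftpb and Abca3 were lowest in tumour 3 instead. Pan-leukocyte markers were highest in tumour 3 for 6 of 6 genes, with 348 CPM against 146 to 203 CPM. None of the markers of these 4 lists had 0 counts in any tumour.

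Transcripts of the p53 targets were present in all 4 tumours, with a median spread close to that of other genes. The SD of log2 CPM over the 4 tumours had a median of 0.30 among the 35 and of 0.29 among all genes tested. Spread beyond counting noise, by Pearson's chi-square on each gene's 4 counts with Benjamini-Hochberg adjustment over all genes, was called for 28 of 35 (80%) against 76.7% of all genes. The 7 others were Trp53, Plk3, Eda2r, Phlda3, Ercc5, Sesn2 and Fdxr. A spread larger than that of genes of like level, by edgeR's quasi-likelihood fit, was called for 0 of 35 and for 0% of all genes. At an unadjusted p under 0.05 it would have been 0 of 35 against 749 of 14225 genes (5.27%), and DESeq2's dispersion outlier rule named 0 of 35 against 170 of all genes. The reference of the edgeR test was fitted to these same genes over 4 tumours. It called no gene, not even Phgdh with 11.1-fold between its extremes. Its 0 of 35 therefore says nothing particular about the p53 targets.

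A highest CPM of more than 2 times the lowest was found for 11 of 35 genes (31.4%) against 28.5% of all genes. These were Cdkn1a, Plk2 and Gtse1 of the cell cycle genes, Bbc3, Pmaip1, Fas and Eda2r of the cell death genes, Polk of the repair genes, and Ddit4, Gdf15 and Slc19a2 of the stress genes. The count was 5 without tumour 1 and 5 without tumour 3, where 18.0% and 16.5% of all genes passed. A single tumour stood apart from the other 3 by Dixon's ratio for 1 of 35 genes, Aen, against 5.86% of all genes.

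No tumour carried uniformly high or low p53 target transcripts. The median deviation of the 35 genes from their own mean was, in log2 units, 0.10, -0.07, -0.05 and -0.01 in tumours 1 to 4, against -0.01 to 0.01 for all genes tested. Tumour 1 had the highest CPM for 15 of 35 genes (42.9%) against 31.4% of all genes. Tumour 2 had the highest for 5 of 35 against 20.4%, tumour 3 for 9 of 35 against 30.1% and tumour 4 for 6 of 35 against 18%. Tumour 1 also had the lowest CPM for 9 of 35 genes, against 30.3% of all genes. Cell cycle and cell death genes had positive medians in tumour 1 (0.24 and 0.15), while repair genes had a negative one (-0.11). In tumour 3 the repair genes had a median of 0.11 and the stress genes one of -0.28. Tumour 2 had medians of -0.21 for the cell death genes and -0.17 for the repair genes. The repair genes had a median of 0.15 in tumour 4. The part of the proliferation and leukocyte markers in these medians was not tested.

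**Figure D2:**
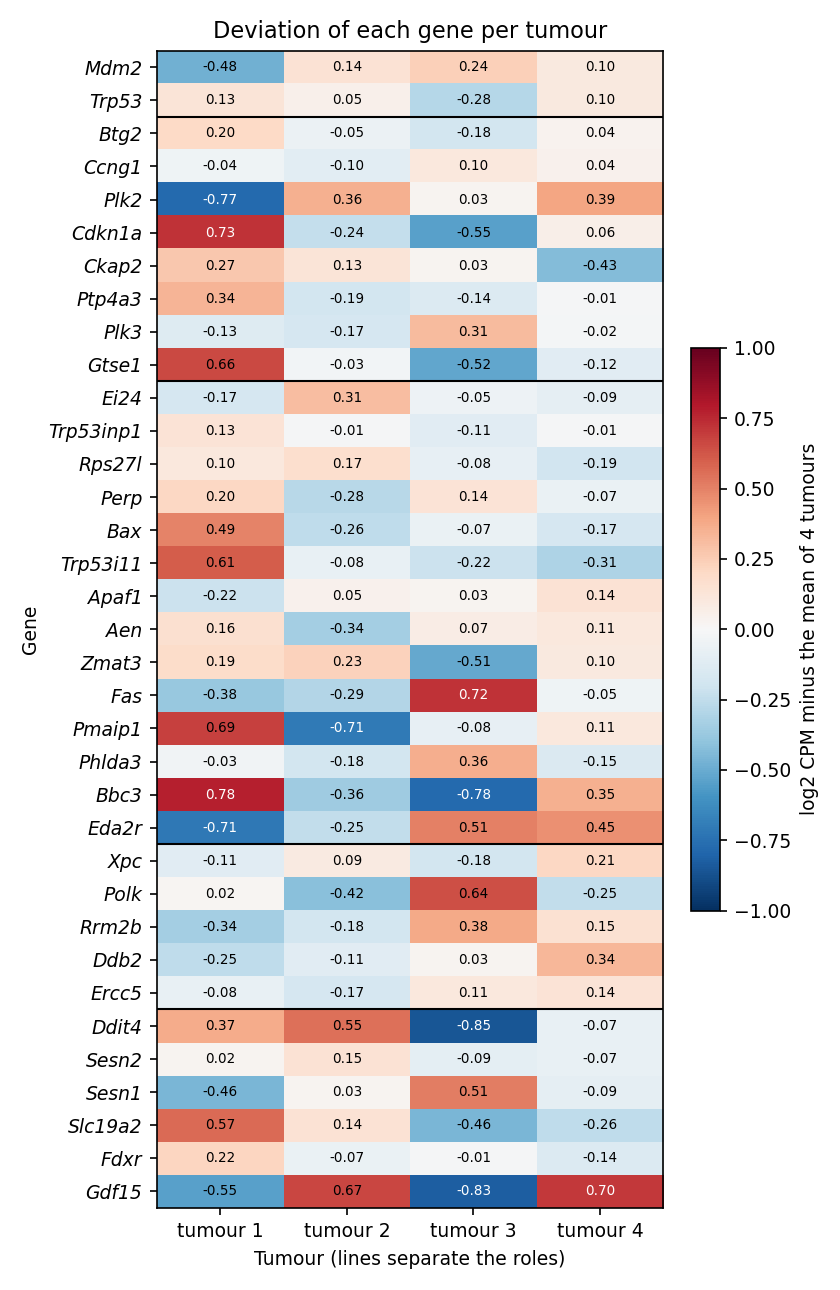
Log2 CPM of each p53 target gene (rows, with lines between roles) in each tumour (columns), minus the mean of the gene over the 4 tumours. Cdkn1a, Gtse1, Pmaip1 and Bbc3 are high in tumour 1 (0.73, 0.66, 0.69 and 0.78), Plk2 and Eda2r are low there (-0.77 and -0.71), and Ddit4 and Gdf15 are low in tumour 3 (-0.85 and -0.83).

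Trp53 (chr11:69580359-69591873, plus strand), which encodes p53, was still counted in every tumour. Its CPM was 12.98, 12.3, 9.75 and 12.7 in tumours 1 to 4, from 79 to 118 counts (mean 11.9 ± 1.49, SD, n = 4). The 4 values were close together, and their spread did not exceed counting noise (chi-square test, Benjamini-Hochberg adjusted p 0.232). Per length of annotated exons it was higher than 28.8% of genes. Counts are summed over the whole gene, so transcripts without the deleted exons and transcripts of cells that Cre did not reach cannot be told apart, and the counts do not check the deletion. The gene also shares near-identical stretches with 22 annotated genes, among them the pseudogene Trp53-ps, which had 0 counts, so its count is uncertain. Mdm2 (chr10:117688875-117710758, minus strand), the ubiquitin ligase that removes p53, had CPM of 51.1, 78.4, 83.8 and 76.2 (mean 72.4 ± 14.6, SD, n = 4). Tumour 1 was low and the other 3 lay together, with a highest value 1.64 times the lowest and a spread beyond counting noise (adjusted p 3.42e-16). Without tumour 1 that call was lost (adjusted p 0.251).

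**Figure D3:**
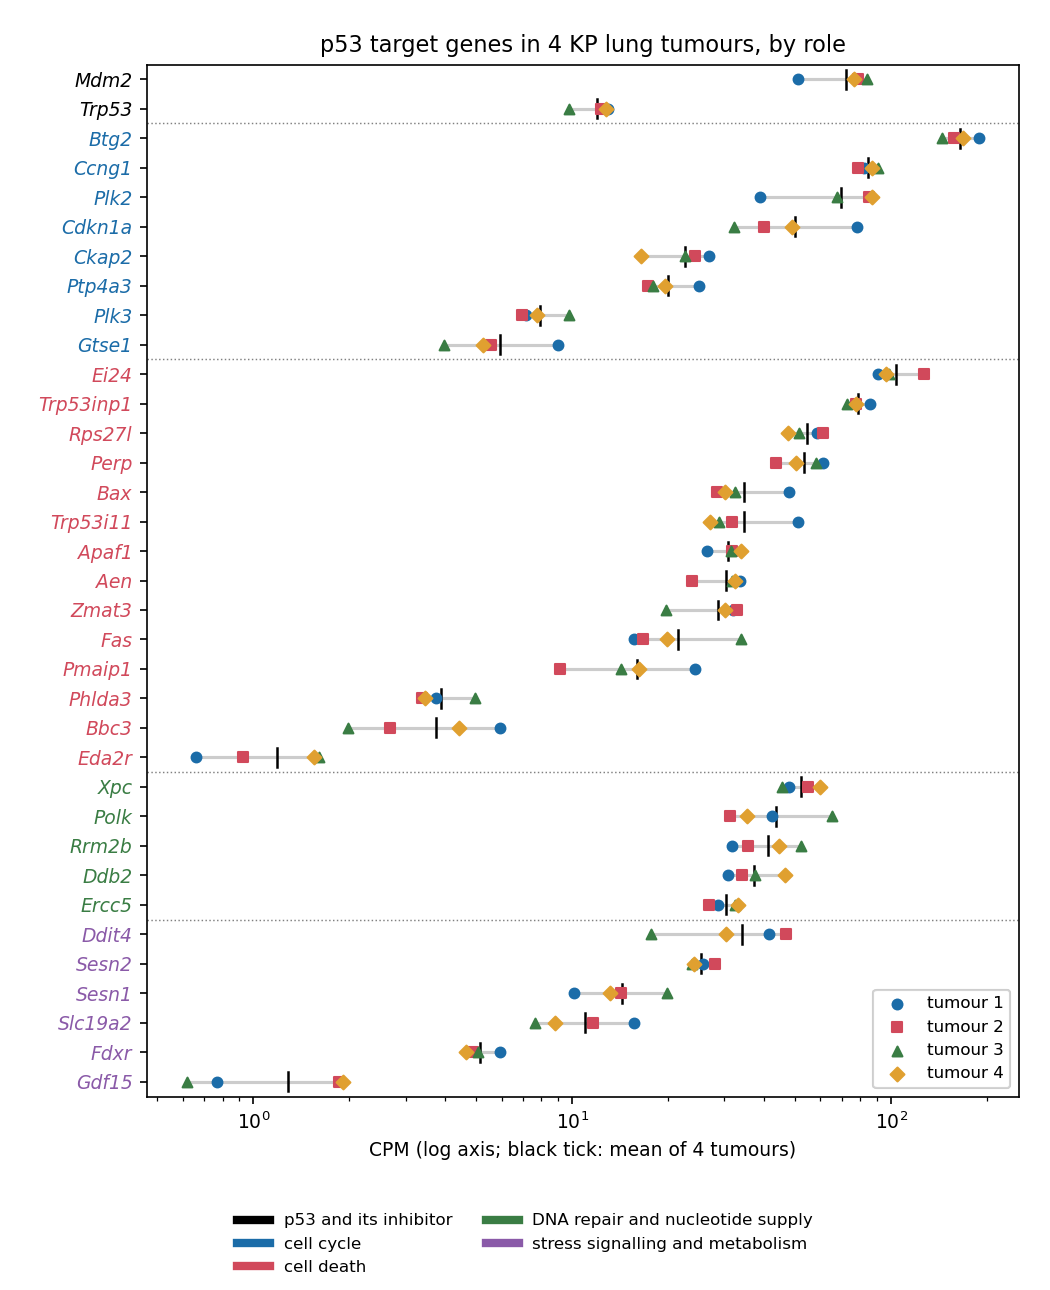
CPM of the 35 genes in each of the 4 tumours on a log axis, grouped by role, with a black tick at the mean and a grey line from the lowest to the highest tumour. Trp53 lies between 9.75 and 12.98 CPM in the 4 tumours, and Cdkn1a is highest in tumour 1 with 77.9 CPM.

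Of 8 cell cycle genes, 7 varied beyond counting noise, against 76.7% of all genes. For 3 of them the highest CPM was more than 2 times the lowest, against 28.5% of all genes. Cdkn1a (chr17:29090976-29100727), which encodes the cyclin-dependent kinase inhibitor p21 and is the classical readout of p53, had CPM of 77.9, 40.0, 32.2 and 49.0 in tumours 1 to 4 (mean 49.8 ± 19.97, SD, n = 4). Tumour 1 was highest and tumour 3 lowest, 2.42-fold apart, with the others in between (adjusted p 7.13e-44 for the spread against counting noise). Plk2 (chr13:110395046-110400844), a polo-like kinase induced under stress, had the opposite place in tumour 1. Its CPM was 38.8, 85.1, 67.7 and 87.2 (mean 69.7 ± 22.4, SD, n = 4), lowest in tumour 1 by 2.24-fold. Gtse1 (chr15:85859745-85876573), a microtubule-associated protein of the G2 and S phases that restrains p53, had CPM of 9.02, 5.58, 3.95 and 5.23 from 32 to 82 counts. Tumour 1 was again highest and tumour 3 lowest, 2.28-fold apart, and without tumour 1 the spread of Gtse1 was no longer beyond counting noise (adjusted p 0.358). Gtse1 had its highest level in tumour 1 as did 9 of the 12 proliferation markers, and the part of proliferating cells in it was not tested.

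The other cell cycle genes were steadier. Btg2, an antiproliferative protein, ranged from 144 to 188 CPM, with tumour 1 highest. Ccng1, which encodes cyclin G1, ranged from 78.9 to 90.9 CPM and had the smallest SD of the 35 on the log2 scale (0.09). Its call against counting noise was narrow (adjusted p 0.0498) and was lost without tumour 2 (0.197), without tumour 3 (0.210) and with no filter on low values (0.0692). Ckap2, a spindle protein, ranged from 16.4 CPM in tumour 4 to 26.7 CPM in tumour 1, and its call was lost without tumour 4 (adjusted p 0.280). Ptp4a3, a tyrosine phosphatase, ranged from 17.3 to 24.98 CPM with tumour 1 highest, and its call was lost without tumour 1 (0.609). The damage-responsive kinase Plk3 lay between 6.97 and 9.75 CPM and did not vary beyond counting noise (adjusted p 0.188).

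Of 14 cell death genes, 12 varied beyond counting noise, against 76.7% of all genes. The highest CPM was more than 2 times the lowest for 4 of them, against 28.5% of all genes. Bbc3 (chr7:16308393-16318205), the BH3-only protein Puma, had CPM of 5.94, 2.67, 1.97 and 4.401 from 16 to 54 counts (mean 3.75 ± 1.78, SD, n = 4). Tumours 1 and 4 were high and tumours 2 and 3 low, with 3.01-fold between the extremes (adjusted p 1.37e-04). Pmaip1 (chromosome 18, 66458533 to 66465565), the BH3-only protein Noxa, had CPM of 24.2, 9.18, 14.2 and 16.2 (mean 15.9 ± 6.25, SD, n = 4). Tumour 1 was highest for it too, but the lowest was tumour 2, 2.64-fold lower (adjusted p 2.28e-13). Bax, a pore-forming effector of apoptosis, had 47.8 CPM in tumour 1 against 28.3 to 32.3 CPM in the others, and without tumour 1 its spread was no longer beyond counting noise (adjusted p 0.384). Apaf1, the scaffold of the apoptosome, was lowest in tumour 1, at 26.4 CPM against 31.3 to 33.9 CPM. Its call was narrow (adjusted p 0.0455) and was lost without tumour 1 (0.672), without tumour 4 (0.0845), with no filter (0.0633) and with library totals in place of effective sizes (0.139).

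Fas (chr19:34290666-34327772), the receptor of Fas ligand, had CPM of 15.6, 16.6, 33.7 and 19.7 (mean 21.4 ± 8.37, SD, n = 4). Tumour 3 was the high one, 2.16-fold above tumour 1, and without it the spread was no longer beyond counting noise (adjusted p 0.139). Leukocytes also express Fas, and the 6 pan-leukocyte markers were highest in the same tumour, although it is not settled whether CD45+ cells had been removed with beads. Ptprc, which encodes the leukocyte antigen CD45, had 26.2, 35.8, 83.4 and 38.5 CPM. Whether leukocytes had a part in the Fas value was not tested. Eda2r (X chromosome, 97333840 to 97377216), a receptor of the same superfamily, had 0.660, 0.929, 1.60 and 1.55 CPM from 6 to 13 counts. Tumours 3 and 4 were above tumours 1 and 2, with 2.43-fold between the extremes, but at these counts the spread was within counting noise (adjusted p 0.217).

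Aen (chr7:78895854-78911209), an exonuclease that amplifies apoptosis, was the gene with 1 tumour apart. Its CPM was 33.5, 23.7, 31.6 and 32.4 (mean 30.3 ± 4.45, SD, n = 4). Tumour 2 was low and the other 3 lay together, and without tumour 2 the spread was within counting noise (adjusted p 0.817). Ei24, a protein of the endoplasmic reticulum, showed the mirror pattern, with 127 CPM in tumour 2 against 91.2 to 98.7 CPM in the others. Zmat3, an RNA-binding protein, was low in tumour 3, at 19.6 CPM against 30.1 to 32.9 CPM. Trp53i11 had 50.9 CPM in tumour 1 against 27.0 to 31.7 CPM. Of the 4 genes, Ei24 lost its call against counting noise without tumour 2 (adjusted p 0.312), Zmat3 without tumour 3 (0.642) and Trp53i11 without tumour 1 (0.247). Perp, a desmosomal protein, ranged from 43.7 to 61.0 CPM and the ribosomal protein paralog Rps27l from 47.6 to 61.0 CPM. Trp53inp1, an autophagy and stress protein, ranged from 72.4 to 85.9 CPM, and its call was lost without tumour 1 (adjusted p 0.450) and without tumour 3 (0.117). Phlda3, an inhibitor of Akt, lay between 3.37 and 4.94 CPM, within counting noise (adjusted p 0.370).

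Of 5 genes of DNA repair and nucleotide supply, 4 varied beyond counting noise, against 76.7% of all genes. In 1 of them the highest CPM was more than 2 times the lowest, against 28.5% of all genes. Polk (chr13:96480690-96542579), a translesion DNA polymerase, had CPM of 42.4, 31.2, 65.2 and 35.2 (mean 43.5 ± 15.2, SD, n = 4). Tumour 3 was highest, 2.09-fold above tumour 2 (adjusted p 1.86e-27). Rrm2b, the p53-inducible subunit of ribonucleotide reductase, was also highest in tumour 3 and ranged from 31.7 to 52.2 CPM. The damage sensors of nucleotide excision repair were highest in tumour 4, with Ddb2 at 46.4 CPM against 30.8 to 37.5 CPM and Xpc at 59.7 CPM against 45.5 to 54.9 CPM. Without tumour 4 the call of Ddb2 was lost (adjusted p 0.0675). Ercc5, the nuclease that cuts on the 3′ side of the lesion, ranged from 26.8 to 33.2 CPM and did not pass (adjusted p 0.0633).

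Of 6 genes of stress signalling and metabolism, 4 varied beyond counting noise, against 76.7% of all genes. Among them 3 had a highest CPM of more than 2 times the lowest, against 28.5% of all genes. Ddit4 (chr10:59949669-59951834), an inhibitor of mTOR complex 1 that also responds to hypoxia, had CPM of 41.4, 46.9, 17.6 and 30.3 (mean 34.1 ± 12.9, SD, n = 4). Tumour 3 was lowest by 2.66-fold against tumour 2 (adjusted p 1.77e-25). Gdf15 (chr8:70629393-70632456), a secreted stress cytokine, had 0.770, 1.86, 0.617 and 1.903 CPM from 5 to 16 counts. Tumours 2 and 4 were high and tumours 1 and 3 low, 3.08-fold between the extremes, with an adjusted p of 0.0331 that was lost without tumour 1 (0.0780) and without tumour 3 (0.123). Slc19a2 (chr1:164249046-164265385), a thiamine transporter, had 15.6, 11.6, 7.65 and 8.80 CPM (mean 10.9 ± 3.55, SD, n = 4). It was highest in tumour 1 and lowest in tumour 3, 2.04-fold apart (adjusted p 3.43e-06). The sestrins restrain mTOR complex 1 under oxidative stress and amino acid shortage. Sesn1 ranged from 10.1 CPM in tumour 1 to 19.9 CPM in tumour 3, and its call was lost without tumour 3 (adjusted p 0.0669). Sesn2 ranged from 23.7 to 28.0 CPM, within counting noise (adjusted p 0.306), as did the mitochondrial reductase Fdxr with 4.64 to 5.94 CPM (adjusted p 0.668).

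**Figure D4:**
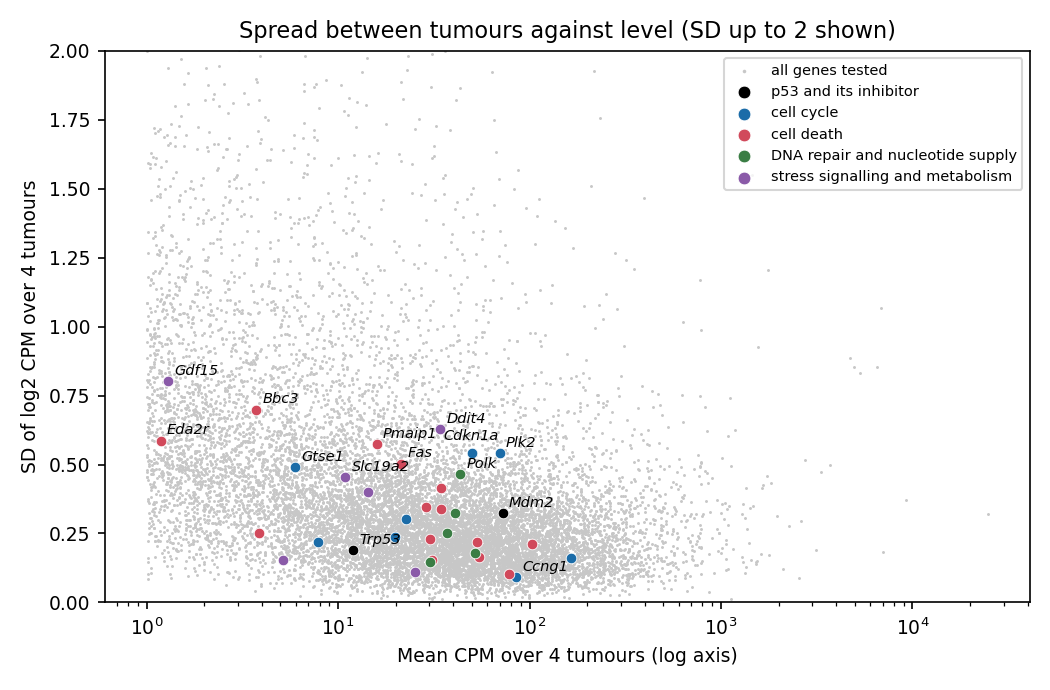
SD of log2 CPM over the 4 tumours against mean CPM (log axis) for all genes tested (grey) and the 35 p53 target genes (coloured by role); genes with an SD over 2 lie outside the plot (184 of 14225). The 35 genes fall within the cloud, from Ccng1 with an SD of 0.09 to Gdf15 with 0.80.

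Levels were compared between genes only per length, as CPM per kb of the union of annotated exons. The 35 genes had a median of 6.999 CPM per kb against 6.60 CPM per kb for 14100 genes with a length. Rps27l came first with 66.9 ± 7.57 (SD, n = 4) CPM per kb and was higher than 94.9% of genes, followed by Btg2 with 60.0 ± 6.76 and Perp with 27.3 ± 4.01. Mdm2 and Cdkn1a lay next to each other, with 14.2 ± 2.86 and 14.01 ± 5.62 CPM per kb, higher than 72.4% and 71.9% of genes. At the lower end came Bbc3 with 1.76 ± 0.840, Gdf15 with 0.695 ± 0.372 and Eda2r with 0.201 ± 0.0788 CPM per kb, the last higher than 0.986% of genes. Between these lay Bax at 22.0 and Pmaip1 at 5.83 CPM per kb. Of 34 pairs of neighbours in this order, 5 kept the same order in 4 of 4 tumours. These were Btg2 above Perp, Rrm2b above Sesn1, Ptp4a3 above Fdxr, Bbc3 above Gdf15 and Gdf15 above Eda2r. With 4 tumours the smallest two-sided p of an exact permutation test by sign flips is 0.125 (adjusted 0.85 over the 34 pairs), so no neighbours could be told apart by the test. The order also depends on the length used. The longest annotated transcript of Ei24 has 2309 bases against 4868 in its union of exons, while Perp has 1952 by either. By the longest transcript Ei24 would lie above Perp.

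**Figure D5:**
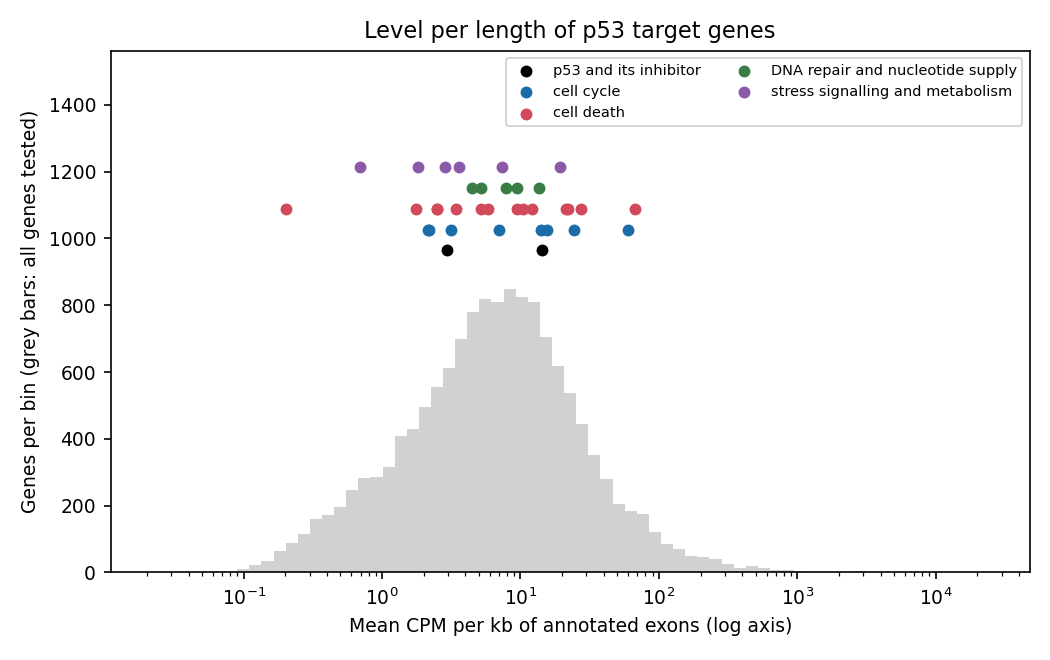
Mean CPM per kb of annotated exons (log axis) of the 35 p53 target genes, 1 row of points per role, above a histogram of all genes tested that have a length (grey bars, genes per bin). The points run from 0.201 (Eda2r) to 66.9 (Rps27l) and cover most of the range of the histogram.

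Further genes of the pathway were looked up. Of 17 regulators of p53 outside the 35, 16 varied beyond counting noise, against 76.7% of all genes. In 4 (Cdkn2a, Ppp1r13l, Wrap53 and Chek2) the highest CPM was more than 2 times the lowest, against 28.5% of all genes. Cdkn2a, whose product Arf holds back Mdm2 and whose product p16 inhibits cyclin D kinases, had 64.0, 55.1, 21.6 and 24.5 CPM. Tumours 1 and 2 were above tumours 3 and 4, and its SD of log2 CPM (0.80) was the largest of the list. Ppp1r13l, which encodes the p53-binding protein iASPP, had 20.6 CPM in tumour 1 and 8.02 CPM in tumour 3 as its extremes. Usp7, a deubiquitinase that acts on Mdm2 and p53, ranged from 131 CPM in tumour 1 to 191 CPM in tumour 3, and the acetyltransferase gene Ep300 from 98.2 to 134 CPM. The p53 relatives Trp63 and Trp73 were scarce, with a summed level of 0.110 to 1.48 CPM and at most 9 counts of either in any tumour.

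Of 22 further p53 targets outside the 35, 19 had a mean of at least 1 CPM and were tested. Among these 19, 18 varied beyond counting noise, against 76.7% of all genes. For 4 of the 19 (Ccnd2, Zfp365, Bid and Casp6) the highest CPM was more than 2 times the lowest, against 28.5% of all genes. Ccnd2, which encodes cyclin D2, had 70.9, 46.3, 41.1 and 20.1 CPM, with tumour 1 highest and tumour 4 lowest. Zfp365 had 1.98, 1.39, 3.33 and 3.09 CPM, with tumours 3 and 4 high. It had at most 27 counts in any tumour, and its call against counting noise was narrow (chi-square test, adjusted p 0.0423). Dram1, a lysosomal protein of autophagy, had 854 CPM in tumour 1 against 1417 to 1566 CPM in the others, and the receptor kinase gene Epha2 ranged from 100 to 177 CPM. Some targets, Ddit4, Sesn2, Bbc3 and Pmaip1 among them, also answer to the stress factor Atf4. Of 12 genes of that response, 11 varied beyond counting noise (76.7% of all genes did), and Atf4 itself ranged from 156 to 190 CPM. Phgdh, an enzyme of serine synthesis, had 68.2, 27.6, 6.17 and 40.2 CPM, with the extremes in tumours 1 and 3. Atf3, a stress-induced transcription factor, had its extremes in tumours 1 and 2 (12.7 and 4.18 CPM), and Psat1, another enzyme of serine synthesis, ranged from 144 to 216 CPM.

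Annotation limits some of these counts. Of the 35 genes, 10 share a stretch of at least 80 bases at 97% identity or more with another annotated gene, and 25 share none. The 10 are Trp53, Mdm2, Cdkn1a, Plk3, Ckap2, Bax, Ei24, Aen, Ddb2 and Rrm2b. For Plk3, Bax, Ei24 and Ddb2 the only such gene is one that overlaps their own exons, so no copy elsewhere was found. Exons of 5 genes overlap a gene on the opposite strand, and those of Bax overlap Gm45808 on the same strand. The largest such overlap with a gene of many counts was 652 bases between Ddb2 and Acp2, a lysosomal phosphatase with 2764 counts. The libraries keep strand, but whether the counting used it is not given in the sources used here, so reads of these overlapping genes may not be separated.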

How the data were processed

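The 4 lung tumours of KP control mice, 1 library each, were measured by RNA sequencing. Per the labels and the study's methods, the authors made stranded libraries from 500 ng of total RNA, trimmed single-end reads with Cutadapt (1.4.2 in the submitters' processing notes), used HISAT2 for alignment to mm10 and featureCounts 1.4.4 for counts per Ensembl gene. The strand setting and annotation release are not given in the sources used here. The deposited counts are raw, and 156068 of 156068 values were equal in the combined table and the single-tumour tables. The authors also deposited log2 normalised counts (TMM and voom), which served as an alternative.

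Totals were multiplied by TMM factors (edgeR 4.0.16, R 4.3.3) to give effective sizes. Totals were 8151613 to 8799007 counts, and no pair of libraries agreed within sampling noise (chi-square per gene of at least 17.5). CPM is the count per 1000000 of effective size, and log2 CPM had 0.5 added to the count. Genes were tested where their mean CPM was 1 or more. Spread against counting noise was tested by Pearson's chi-square, with Poisson expectations in proportion to effective size, and spread against genes of like level by the quasi-dispersion of an intercept-only glmQLFit, both with Benjamini-Hochberg adjustment over 14225 genes at 0.05. These p-values measure the spread between these tumours, which may be partly technical, and reads carried no molecular identifiers. DESeq2 1.42.0 gave alternative size factors and dispersion outliers. The scripts were tested on simulated data. A further allele of the model is not reported here.

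Gene positions, exon lengths and overlaps are those of GENCODE M21 on GRCm38 (37607 of 39017 identifiers matched), and near-identical stretches were found with BLAST 2.17.0. Promoter windows of 300 bases came from RefSeq.

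The 35 genes and the other gene lists (140 genes, 140 matched, 5 of them by identifier) were chosen with earlier results of these data known. All 35 are named. Values in every tumour are given for Trp53, Mdm2, Cdkn1a and each gene with a fold over 2, a tumour apart or a trend call, and the others are given by range. Up to 4 genes per other list are named, those with the highest mean and the largest SD. Further marker genes, among them all fibroblast genes, were named after their values were seen, mostly to show which went against their list. Genes given in parentheses were named after their values were seen. Lists not named in the report (airway club and ciliated, macrophage, T and B cell, neutrophil, endothelial, fibroblast, muscle, red blood cell, dissociation) are given under other observations.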

Additional observations from a re-analysis of the deposited data

Results flagged for a closer look

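Dixon's ratio was computed for 57 values, and chance alone sets about 1 in 20 of them apart. It named 5. The CPM of Aen was low in tumour 2 (23.7 CPM against 31.6 to 33.5 CPM). The mean log2 CPM of the epithelial markers was high in tumour 1 (9.16 against 8.33 to 8.43), although Cdh1 was lowest there. That of the alveolar type 2 markers was low in tumour 1 (10.77 against 11.70 to 11.89), and that of the airway club and ciliated markers was low there as well (1.079 against 3.85 to 4.28). Among the airway markers, Ccdc39 was highest in tumour 1 instead. The mean log2 CPM of the fibroblast markers was low in tumour 4 (4.96 against 5.32 to 5.38). Col1a1, Col1a2, Col3a1 and Pdgfrb were lowest there, whereas Pdgfra and Dcn were lowest in tumour 1 and Lum in tumour 3.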

How the results depend on the processing

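All 35 genes were tested under each alternative but a mean CPM of at least 10, which kept 28. The count of spread beyond counting noise was 25 to 28 under other scalings, filters and the likelihood-ratio test, and 20 to 25 with 1 tumour left out. The share of all genes moved with it, to 53.5% with no filter, 85.3% at a mean CPM of at least 10 and 62.3 to 71.9% with 1 tumour left out. Effective sizes differed by at most 1.12-fold. A highest CPM of more than 2 times the lowest was found for 7 genes at a mean CPM of at least 10 and for 5 to 11 with 1 tumour left out, when 16.5 to 25.1% of all genes passed. For all genes this share was 50.4% with no filter and 17.2% at a mean CPM of at least 10. DESeq2's dispersion rule named 170 genes where the edgeR fit named 0. Neighbours in the same order in every tumour numbered 2 at a mean CPM of at least 10, since fewer genes remained, and 6 to 7 with 1 tumour left out. Matches to paired half-sites were found for 1 gene with 0 mismatches and 7 genes with 2. The median deviation in tumour 4, near 0, turned to 0.01 at a mean CPM of at least 10 and to 0.03 without tumour 1. The search within 5 kb of the start was not run, since no genome sequence was used here. Dixon's ratio was not run with 3 tumours, and another pseudocount was not run for the fold range, which is a ratio of CPM with none added. No paired analysis was possible because the tumours form 1 group. Depth limits Gdf15 and Eda2r, with 5 to 16 counts per tumour, most.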

Other observations

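Markers of other cells gave these values. Airway club and ciliated markers summed to 41.8 CPM in tumour 1 against 530 to 888 CPM in the others, although Ccdc39 was highest in tumour 1. T and B cell markers summed to 66.4 CPM in tumour 3 against 14.9 to 27.8 CPM, with Jchain at 31.6 CPM and Cd2 at 12.6 CPM there. Lck was lowest in tumour 3 instead, and Cd79a and Cd79b were highest in tumour 4. Red blood cell markers summed to 108 CPM in tumour 3 against 31.2 to 44.1 CPM. Macrophage markers summed to 309 CPM in tumour 3 against 215 to 230 CPM. Of the 7 genes 4 were highest there, while C1qa and C1qb were lowest there. Neutrophil markers ranged from 17.5 to 37.5 CPM, endothelial markers from 227 to 303 CPM, fibroblast markers from 325 to 568 CPM and muscle markers from 2.64 to 5.11 CPM. Genes of dissociation and early response summed to 188 to 219 CPM.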
